A study of Rattus norvegicus with 3 samples.

Results

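Wnt proteins are secreted ligands that bind Frizzled receptors together with LRP5 and LRP6, or with ROR and RYK, and in the canonical branch stabilise beta-catenin, which then acts with TCF and LEF factors in the nucleus. R-spondins bind LGR receptors and keep the ubiquitin ligases RNF43 and ZNRF3 from removing Frizzled receptors, so they raise the response to a Wnt. Dickkopf proteins bind LRP5 and LRP6, and secreted Frizzled-related proteins bind the ligands themselves. In the thymus, epithelial cells and fibroblasts are known sources of Wnt signals, and developing T cells depend on TCF1 (Tcf7) and LEF1. The 9 genes described here are the ligands Wnt4, Wnt5a, Wnt5b, Wnt2b and Wnt10b, the R-spondins Rspo1 and Rspo3, and the antagonists Dkk2 and Sfrp1. They were chosen by name, with earlier results of these data known, from the 34034 features of the stromal count matrix. All 9 were found there.

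The study took thymus from Lewis rats, an inbred strain, at 8 weeks of age. One droplet library was made from stromal cells enriched and sorted as CD45-negative, one from thymocytes, and one section was profiled on a spatial chip. There was 1 sample of each kind, with no treatment, no genotype other than the strain and no replicate, so values below carry intervals for counting error only, and no test between groups was possible. How many animals went into each library is not given in the sources used here.

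The stromal library held 16160 barcodes, of which the authors annotated 13226, with 131624350 UMIs and a median of 9087.5 per cell. The thymocyte library held 8546 annotated cells with a median of 3994 UMIs. The libraries shared 38 barcodes, 28 of them annotated in both. Levels are given as CPM, the UMIs of a gene summed over the cells of a label per 1000000 UMIs of those cells. They are given for the 24 of 29 labels with at least 20 cells, and they are compared between labels of a gene, not between genes. Fibroblasts here are the labels TMC1 to TMC4 and capFb (8216 cells), and epithelium the labels that begin with TEC (2295 cells). The summed fibroblast markers (Col1a1, Col1a2, Col3a1, Dcn, Lum and Pdgfra) stood at 8923 to 55306 CPM in the fibroblast labels, and the summed epithelial markers at 1876 to 9838 CPM in the TEC labels of at least 20 cells, against 38 to 48 CPM in the fibroblast labels.

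Some cells carried markers of another class than their label. Epithelial labels within the initial cluster TEC-c held the fibroblast list at 12800 to 21498 CPM and endothelial labels within Endo-2 at 17683 to 20462 CPM, close to the fibroblast labels, while within TEC-b it was 516 to 641 CPM. The small label aaTEC2 (29 cells) held it at 34686 CPM, the Thymocyte label at 13557 CPM and the B cell label at 8713 CPM. These values stand beside each result they touch, and their part in it was not tested except where a value without such cells is given. No doublet caller was run.

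**Figure D1:**
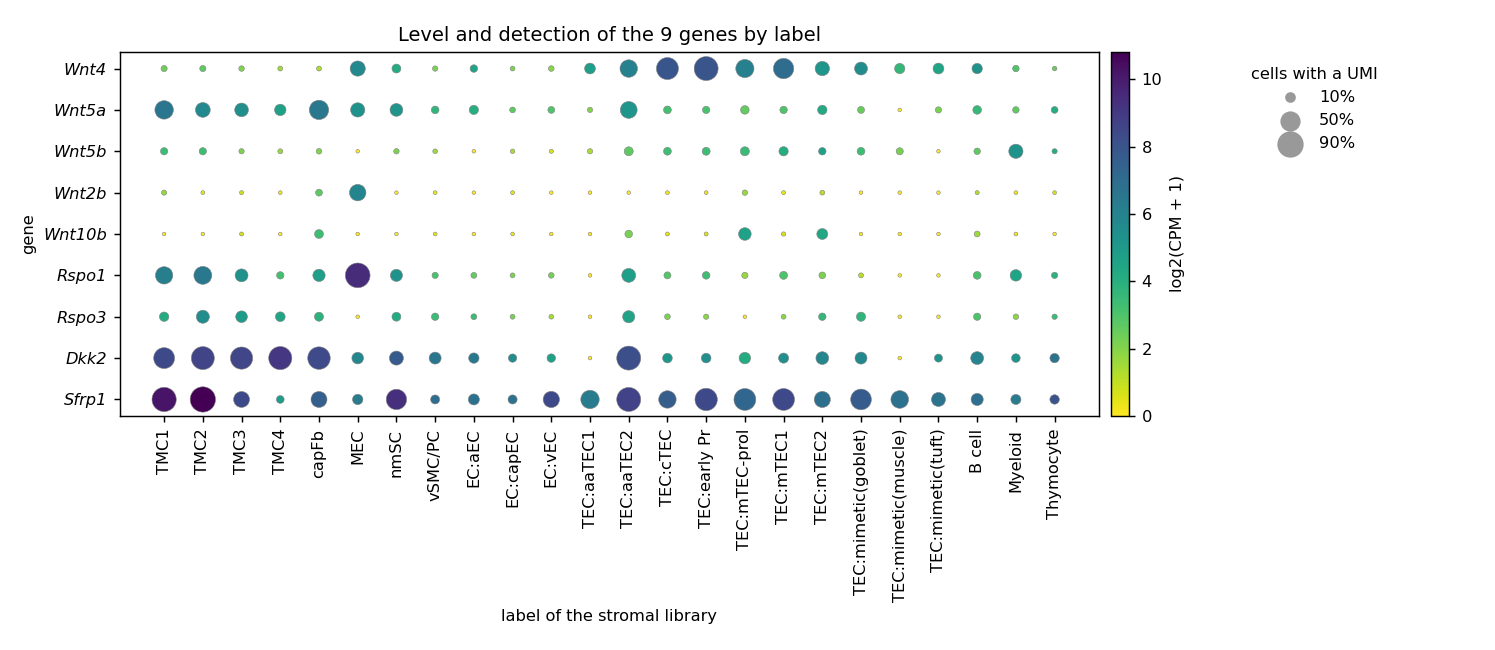
Each dot is 1 gene (vertical axis) in 1 label of the stromal library (horizontal axis, 24 labels of at least 20 cells); colour gives log2(CPM + 1) and area the percent of cells with a UMI. Wnt4 is darkest in the early Pr and cTEC labels (250.6 and 239.6 CPM), Rspo1 in MEC (721 CPM), and Dkk2 and Sfrp1 in fibroblast labels.

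Of the 9 genes, 6 were at least 3-fold higher in pooled fibroblasts than in pooled epithelium (Wnt5a, Wnt2b, Rspo1, Rspo3, Dkk2 and Sfrp1), against 10.5% of the 17907 genes with enough UMIs. Wnt4 was the 1 gene at least 3-fold higher in epithelium, where 17.7% of genes met that rule. Wnt5b and Wnt10b met neither. The median log2 ratio of fibroblasts to epithelium was 2.52 over the 9 genes and -0.158 over all genes. The 9 genes were chosen with earlier results of these data known, so these values describe the list only. By the stricter rule of a highest label at least 3-fold above the next label, with at least 20 UMIs in the highest, 2 of 9 genes were called (Wnt2b and Rspo1, both in MEC), against 9.44% of 13149 genes. The calls of Wnt2b and Rspo1 rest on how MEC is treated. With initial clusters in place of labels, which places most MEC cells in an epithelial cluster, the class ratios were 1.30 for Wnt2b and 2.69 for Rspo1, and with labels of at least 50 cells, which MEC does not reach, 0 of 9 genes led by 3-fold.

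**Figure D2:**
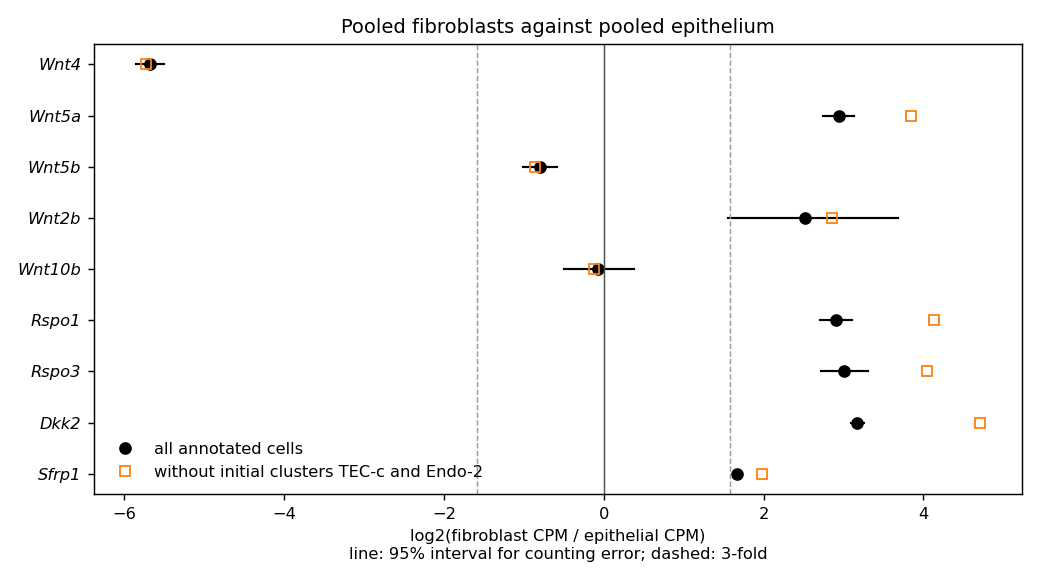
Log2 ratio of pooled fibroblast to pooled epithelial CPM (horizontal axis) for each of the 9 genes (vertical axis); black points use all annotated cells with the 95% interval for counting error, orange squares leave out the initial clusters TEC-c and Endo-2, and dashed lines mark 3-fold. Wnt4 lies alone on the epithelial side beyond 3-fold, and the squares of Wnt5a, Rspo1, Rspo3 and Dkk2 lie farther to the fibroblast side than the points.

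Wnt4, a ligand of thymic epithelium, was the epithelial member of the group. Its level was 250.6 CPM (95% interval 241.8 to 259.7) in early Pr, 239.6 CPM (226.2 to 253.6) in cTEC and 129.3 CPM (120.7 to 138.4) in mTEC1. The first pair differed 1.05-fold with an interval of 0.978 to 1.12, so their order is within counting error, whereas cTEC was 1.85-fold above mTEC1 (1.69 to 2.03). The label mTEC-prol stood at 70.2 CPM and mTEC2 at 34.3 CPM. A Wnt4 UMI was found in 86.0% of early Pr cells, 72.1% of cTEC and 61.2% of mTEC1, at median depths of 10977, 10535 and 11915.5 UMIs, and in 1.22% of Thymocyte-labelled cells at a median of 2648 UMIs. After thinning each cell to 3000 UMIs, the shares were 50.0%, 43.6%, 32.6% and 1.27%; thinning left out 16 of 1018, 37 of 448, 28 of 482 and 253 of 411 cells. Pooled epithelium held 184.1 CPM and pooled fibroblasts 3.61 CPM, a 51.0-fold ratio (45.3 to 57.7), and 90.8% of all Wnt4 UMIs lay in epithelial labels.

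Wnt4 also varied within a label by initial cluster. Cells labelled cTEC held 308.2 CPM within TEC-b, 140.9 CPM within TEC-c and 10.2 CPM within TEC-a (72 cells). Cells labelled mTEC1 held 260.5 CPM within TEC-b and 62.1 CPM within TEC-d. So the label mean of mTEC1 covers a cluster near the early Pr level, which was 274.5 CPM within TEC-b, and one well below it. The B cell label held 39.6 CPM of Wnt4 with a UMI in 14.5% of its cells, and its epithelial marker list stood at 1198 CPM, above the 146 CPM of the Myeloid label; the part of those cells in the value was not tested.

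Wnt5a, a ligand best known for signalling through ROR2 without beta-catenin, was a fibroblast gene with a gradient among the fibroblast labels. It stood at 93.2 CPM (88.2 to 98.4) in TMC1, 87.4 CPM (82.9 to 92.1) in capFb, 51.2 CPM in TMC2, 41.7 CPM in TMC3 and 24.2 CPM (21.5 to 27.2) in TMC4. TMC1 and capFb did not differ beyond counting error (1.07-fold, 0.988 to 1.15), and capFb was 1.71-fold above TMC2 (1.58 to 1.84). TMC1 was 3.85-fold above TMC4 (3.38 to 4.39). A UMI was found in 50.3% of TMC1 cells and 18.1% of TMC4 cells, or 23.6% and 7.01% at 3000 UMIs. Fibroblasts were 7.67-fold above epithelium (6.72 to 8.80), and 14.4-fold above it without TEC-c and Endo-2, where the fibroblast list of epithelial labels is high.

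Wnt2b, a ligand able to signal through beta-catenin, was rare outside 1 label. Its level was 58.8 CPM in MEC (31 UMIs in 19 of 48 cells, 40.0 to 83.5), 5.45 CPM in capFb (88 UMIs) and 2.42 CPM in TMC1 (34 UMIs). MEC stood 10.8-fold above capFb (6.93 to 16.4). Among fibroblasts, capFb stood 2.25-fold above TMC1 (1.497 to 3.45), and TMC2, TMC3 and TMC4 each held 9 UMIs or fewer. The ratio of fibroblasts to epithelium was 5.73 with all UMIs (2.93 to 12.8), where epithelium held 9 UMIs. At 1000 UMIs per cell it was 1.39, where a class with fewer than 3 UMIs was set to 3. That value is therefore not read as a change in level. A UMI was present in 39.6% of MEC cells and in 21.3% at 3000 UMIs, against 72 of 1358 capFb cells and, at 3000 UMIs, 1.63%.

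Wnt10b, another ligand of the canonical branch, was found at low counts in unlike places. It stood at 22.7 CPM in mTEC-prol (31 UMIs), 19.4 CPM in mTEC2 (17 UMIs) and 9.53 CPM in capFb (154 UMIs). The epithelial pair did not differ beyond counting error (1.17-fold, 0.626 to 2.25), and mTEC-prol stood 2.38-fold above capFb (1.56 to 3.52). At 1000 UMIs per cell mTEC-prol and mTEC2 held 1 UMI each (13.2 CPM in mTEC-prol), so no ratio is given at that depth. In mTEC-prol, 54.8% of the UMIs came from 5 cells, whereas in capFb they were spread over 137 of 1358 cells. Of the other fibroblast labels, TMC3 held 7 UMIs, TMC2 held 1, and TMC1 and TMC4 held 0, which with 3 UMIs as the limit allows up to 0.214 and 0.260 CPM. So within fibroblasts Wnt10b was nearly all in capFb.

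Wnt5b, a relative of Wnt5a, was highest in the Myeloid label, which had passed the CD45-negative sort and whose blood marker list stood at 6018 CPM. Its level was 40.1 CPM there (242 UMIs, 35.2 to 45.5), 25.1 CPM in mTEC2 and 16.9 CPM in mTEC1. All 22 UMIs of mTEC2 lay in 4 of 61 cells, while the Myeloid UMIs lay in 146 of 505. Myeloid stood 1.59-fold above mTEC2 (1.03 to 2.59), or 3.47-fold above the next label when cells were averaged equally, and 2.37-fold above mTEC1 (1.88 to 2.99). In the thymocyte library Wnt5b reached 28.3 CPM in gdT (77 UMIs) and 24.7 CPM in B+myeloid (59 UMIs). The ratio of epithelium to fibroblasts was 1.74 (1.51 to 2.01), under the 3-fold rule.

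Rspo1 was by far higher in MEC than in any other label. It stood at 721 CPM in MEC (380 UMIs, 651 to 798), with a UMI in 44 of 48 cells, a median of 7 and a maximum of 21 UMIs per cell. TMC2 held 87.7 CPM (84.2 to 91.3), TMC1 71.7 CPM, TMC3 38.2 CPM, capFb 26.6 CPM and TMC4 8.48 CPM (6.89 to 10.3). MEC stood 8.23-fold above TMC2 (7.36 to 9.17), TMC2 1.22-fold above TMC1 (1.136 to 1.32) and TMC2 10.3-fold above TMC4 (8.45 to 12.8). The share of MEC cells with a UMI was 91.7%, and 80.9% at 3000 UMIs, against 47.1% and 21.8% in TMC2. The Myeloid label held 21.5 CPM (130 UMIs), and 18.8 CPM after cells with fibroblast markers were left out.

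The label MEC is small, and its markers were checked. The mesothelial list (Msln, Upk3b, Upk1b, Lrrn4 and Wt1) summed to 5734 CPM there with 5 of 5 genes detected, against at most 177 CPM in any other label of at least 20 cells. Its fibroblast list stood at 16929 CPM and its epithelial list at 643 CPM, and 44 of its 48 cells came from initial cluster TEC-a. Within those 44 cells Rspo1 stood at 809.9 CPM and Wnt2b at 66.6 CPM. In contrast, MEC held 0 UMIs of Rspo3, which with 3 UMIs as the limit allows up to 5.69 CPM, and 53.1 CPM of Dkk2, below each fibroblast label.

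Rspo3, whose protein acts through the same receptors as Rspo1, was spread over fibroblast labels in another order. It stood at 45.2 CPM (42.7 to 47.9) in TMC2, 28.3 CPM in TMC3, 20.1 CPM in TMC4, 17.2 CPM in TMC1 and 13.6 CPM (11.9 to 15.5) in capFb. TMC2 was 1.60-fold above TMC3 (1.41 to 1.82) and TMC3 1.41-fold above TMC4 (1.18 to 1.68), while TMC4 and TMC1 did not differ beyond counting error (1.17-fold, 0.972 to 1.41). At 3000 UMIs per cell the ratio of TMC2 to the next label was 1.15, against mTEC2 with 7 UMIs. At 1000 UMIs it was 0.869, against the goblet label with 3 UMIs in 55 cells. Fibroblasts stood 8.04-fold above epithelium (6.58 to 9.92), and 16.5-fold without TEC-c and Endo-2.

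Rspo3 is shown by the sequence before its start, since the window lies outside the annotated gene and since Rspo3 varied across labels with Dkk2 (Pearson r = 0.881 over 18 labels). The 250 bases upstream of the RefSeq start (GRCr8, chr1:30112279-30112528, plus strand), which is another build than the mRatBN7.2 of the counts, read as follows, with the match to GGGCGG on the minus strand in capitals.
Rspo3: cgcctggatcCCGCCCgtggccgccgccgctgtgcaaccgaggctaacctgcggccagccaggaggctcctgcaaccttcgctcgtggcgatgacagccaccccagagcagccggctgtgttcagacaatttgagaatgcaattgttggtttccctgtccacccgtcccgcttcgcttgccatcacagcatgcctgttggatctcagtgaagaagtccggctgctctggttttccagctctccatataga
The window had 60.4% G and C against a median of 51.2% over 33469 such windows. On both strands, GGGCGG (the GC box) was present once and in 30.5% of all windows, whereas TATAAA (12.9% of windows) and CTTTGA, the core bound by TCF and LEF factors (13.9% of windows), were not among these letters. These motifs do not overlap each other, and a match is a description only.

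Dkk2 was a fibroblast gene found in every fibroblast label. It stood at 554 CPM (541 to 568) in TMC4, 396 CPM in TMC2, 372 CPM in TMC3, 339 CPM in TMC1 and 335 CPM in capFb. TMC4 stood 1.40-fold above TMC2 (1.36 to 1.44), and TMC1 and capFb did not differ beyond counting error (1.01-fold, 0.975 to 1.05). The share of cells with a UMI ran from 64.9% in TMC1 to 80.1% in TMC4, or from 45.3% to 63.2% at 3000 UMIs. Fibroblast labels held 92.3% of its UMIs and 60.0% of all UMIs of the library.

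Sfrp1 had an unlike order and a far wider range. It stood at 1789 CPM (1773 to 1805) in TMC2, 1202 CPM in TMC1, 342 CPM in TMC3, 191 CPM in capFb and 27.3 CPM (24.4 to 30.5) in TMC4. TMC2 was 1.49-fold above TMC1 (1.46 to 1.51) and 65.4-fold above TMC4 (58.6 to 73.3). TMC4 was thus the highest of the 24 labels for Dkk2 and the lowest for Sfrp1. A Sfrp1 UMI was found in 96.4% of TMC2 cells and 7.21% of TMC4 cells, or 89.9% and 4.62% at 3000 UMIs. The median depth was 8269.5 UMIs in TMC2 and 8717 UMIs in TMC4.

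**Figure D3:**
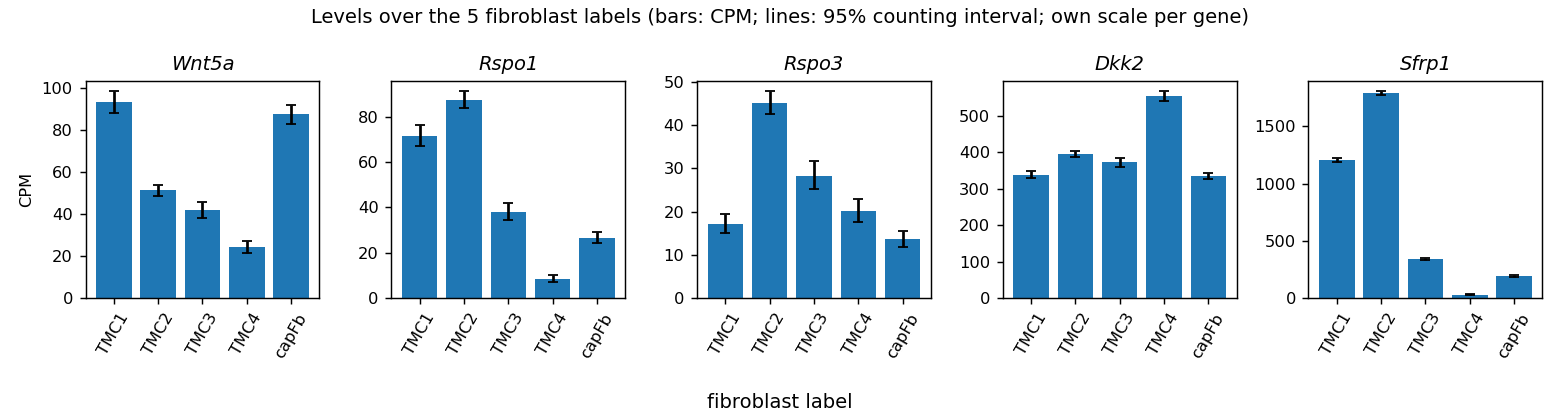
Level in CPM (vertical axis, own scale for each gene, from 0) of Wnt5a, Rspo1, Rspo3, Dkk2 and Sfrp1 in the 5 fibroblast labels (horizontal axis); lines give the 95% counting interval. TMC4 has the tallest bar for Dkk2 (554 CPM) and the shortest for Wnt5a, Rspo1 and Sfrp1 (24.2, 8.48 and 27.3 CPM).

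The Wnt4 shares of the Thymocyte label given above are a description. That label held the fibroblast list at 13557 CPM, so its shares of cells with a UMI are not used as a background. With cells that carry fibroblast markers left out, which kept 329 of its 411 cells, it held 6.54 CPM of Sfrp1 (6 UMIs), 4.36 CPM of Dkk2 (4 UMIs), 2.18 CPM of Wnt5a (2 UMIs) and 0 UMIs of Rspo1 and Rspo3. Those cells were kept for their few fibroblast markers, so these levels are a description. Wnt5b stood at 26.1 CPM in them (24 UMIs), above each fibroblast label, where it was 2.25 to 9.62 CPM. Over all 411 cells of the label, however, its 28 UMIs lay in 9 cells, with up to 20 in a single cell. The level thus rests on very few cells.

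Sfrp1 was also present outside fibroblasts. It stood at 343 CPM in early Pr and 349 CPM in mTEC1, with a UMI in 74.6% and 71.0% of cells. Within TEC-b, where the fibroblast list was 641 CPM, early Pr held 274.9 CPM of Sfrp1, and with marker-bearing cells left out 268.4 CPM. The endothelial label vEC held 346 CPM, and 280.4 CPM within Endo-1, where capEC held 25.5 CPM and aEC 6.94 CPM. The Thymocyte label held 266 CPM of Sfrp1, and 6.54 CPM after cells with fibroblast markers were left out. Cells were taken out by those markers, so both levels without them are a description. The source of Sfrp1 in these labels was not tested.

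Dkk2 in epithelial and endothelial labels was high where the fibroblast list was high. Early Pr cells held 203.1 CPM of Dkk2 within TEC-c and 8.86 CPM within TEC-b, mTEC1 cells 233.6 CPM and 3.25 CPM, and capEC cells 170.3 CPM within Endo-2 and 10.5 CPM within Endo-1. Pooled fibroblasts stood 8.997-fold above epithelium (8.50 to 9.53), and 26.2-fold without TEC-c and Endo-2. The ratio of Sfrp1 was 3.18 (3.11 to 3.25), and 3.94 without them.

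**Figure D4:**
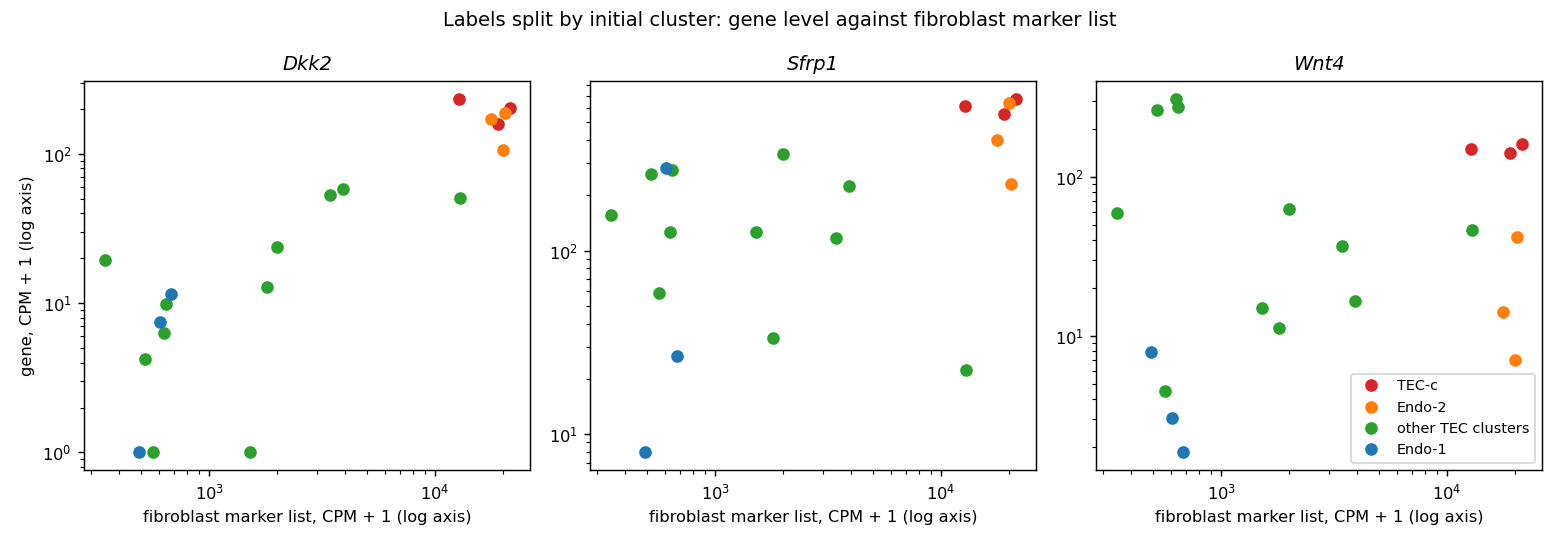
Epithelial and endothelial labels and MEC split by initial cluster (points, at least 20 cells each): level of Dkk2, Sfrp1 and Wnt4 (vertical, CPM + 1, log axis) against the summed fibroblast markers (horizontal, CPM + 1, log axis). TEC-c and Endo-2 points lie at the right, with Dkk2 at 105 to 234 CPM, while Sfrp1 is also high in several points at the left.

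The patterns were compared across the 18 labels of at least 50 cells, on log2(CPM + 1), as a description; the labels share 1 library, and depth differs between them. Wnt5a and Dkk2 had r = 0.881, Wnt5a and Rspo1 0.784, and Wnt4 and Dkk2 -0.601. Some labels outside the fibroblasts carried the fibroblast list, such as Thymocyte at 13557 CPM and B cell at 8713 CPM. Its part in these correlations was not tested. Among 13997 genes, the most like Wnt4 were Krt14 (0.979), a basal keratin, Exph5 and Pak6. The most like Wnt5a were Magi2 (0.970), Antxr2 and Tmem45a. For Rspo3 they were Slit2 (0.925), Pdgfra and Epha3, of which Pdgfra is a receptor that marks fibroblasts. For Dkk2 they were Cpq (0.971), C1r and Gpr153, and for Sfrp1 Smoc2 (0.883), Cfb and Cela3b. For Rspo1 they were Dpp7 (0.913), Slc29a3 and Aff2, with MEC left out by its size. The genes most like Wnt5b were Sema4a (0.892), Tmem258 and Hps1. For Wnt2b they were Vcan (0.827), Lrrc59 and Gsc, and for Wnt10b Brinp3 (0.924), Atp8a2 and Cd86. MEC, the highest label of Wnt2b, was left out here too. Both genes had very few UMIs in most of the 18 labels, so their values rest largely on low counts.

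The section gave the places of the fibroblast labels, since the authors assigned each bin up to 3 labels by decomposition; gene values per bin were not used. Bins with a first label of capFb lay in the capsular region in 98.0% (50 of 51), TMC1 in 93.3% (70 of 75), TMC2 in 93.3% (42 of 45), TMC3 in 60.2% (160 of 266) and TMC4 in 15.3% (38 of 249; exact Clopper-Pearson interval 11.0 to 20.3). TMC4, with the highest Dkk2 and the lowest Sfrp1, lay in the regions labelled mECA in 40.2%, mEFA in 26.9% and cortex in 17.7%. With any of a bin's labels counted, TMC4 bins lay in the cortex in 34.6%, mEFA in 26.7% and mECA in 22.3%, and in segmented cell bins in the cortex in 34.1%, mECA in 31.6% and mEFA in 27.4%, so which region held most TMC4 bins depends on the setting. TMC3 with any label counted lay in the capsular region in 38.8% and the cortex in 40.9%. Over all 599178 bins the cortex held 69.1%, the capsular region 21.0%, mECA 6.71% and mEFA 3.26%. A bin can hold several cells, so these are shares of bins.

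**Figure D5:**
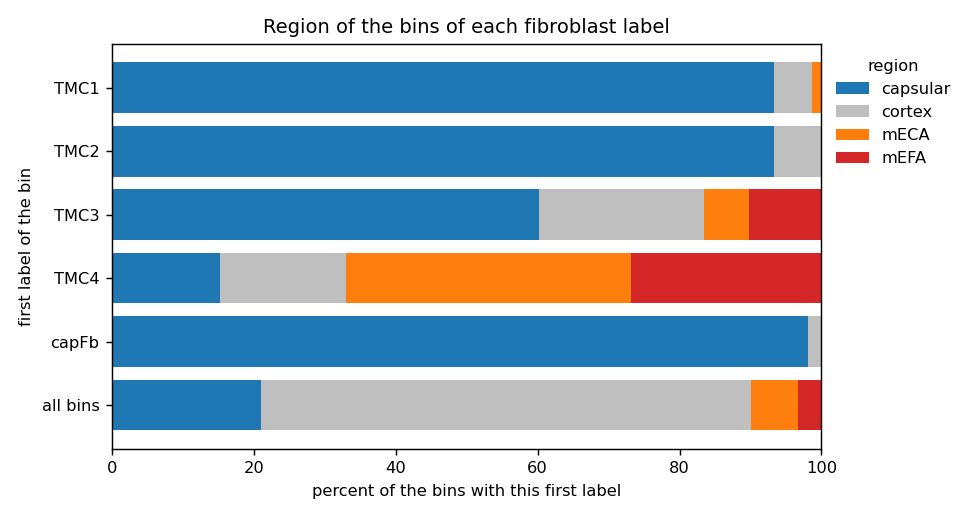
Percent of bins (horizontal axis) in each region for bins whose first label is a fibroblast label, and for all bins (vertical axis). TMC1, TMC2 and capFb lie mostly in the capsular region (93.3% to 98.0%), and TMC4 in mECA (40.2%) and mEFA (26.9%).

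The other 61 listed genes of the pathway, a list also made with earlier results of these data known, were all among the features. Of the 45 with enough UMIs for the comparison of classes, 11 were at least 3-fold higher in fibroblasts and 11 in epithelium, against 10.5% and 17.7% of all genes, with a median log2 ratio of -0.158, the value over all genes. Of the other ligands, 5 of 8 were higher in epithelium (17.7% of all genes) and 1 in fibroblasts (10.5%). Wnt3 stood at 46.8 CPM in mTEC2 (41 UMIs), 495-fold above TMC3 with 1 UMI (84.0 to 20012), Wnt7b at 18.4 CPM in cTEC, and Wnt9a at 18.6 CPM in cTEC. For release of ligands, Wls, which carries Wnts to the cell surface, stood at 394 CPM in early Pr. Porcn, which acylates them, stood at 12.1 CPM in TMC1. Neither passed 3-fold between classes. The leads of Wnt9a (1.28-fold), Wls (1.03-fold) and Porcn (1.03-fold) over the next label were within counting error.

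Of the other antagonists, 5 of 7 were higher in fibroblasts (10.5% of all genes) and 1 in epithelium (17.7%). Apcdd1, a membrane inhibitor, stood at 27.9 CPM in capFb. Sfrp5 stood at 95.2 CPM in nmSC (27 UMIs, 39 cells), 272-fold above the B cell label with 1 UMI (44.8 to 11135); that label held the glial list at 734 CPM and the fibroblast list at 21281 CPM. Notum, an enzyme that inactivates Wnts, stood at 16.3 CPM in the Thymocyte label (28 UMIs), 23.3-fold above the B cell label with 2 UMIs (5.88 to 201.9).

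Of 16 receptors tested, 2 were higher in epithelium and 1 in fibroblasts, where 17.7% and 10.5% of all genes were, so these counts are no result about receptors. Kremen2, a receptor of Dickkopf proteins, stood at 41.7 CPM in mTEC-prol, and epithelium was 146-fold above fibroblasts, which held 3 UMIs (interval 49.0 to 715). Ror1 was highest in MEC (296 CPM). Fzd3 stood at 24.9 CPM in mTEC-prol, 1.33-fold above cTEC (0.873 to 2.00), so their order is within counting error. Of the other R-spondins, Rspo4 stood at 6.29 CPM in capEC (28 UMIs), and the next label, aEC, held 1 UMI. Rspo4 had too few UMIs for the comparison of classes. Of the R-spondin receptors and their targets, Lgr4 was 3.02-fold higher in epithelium (2.91 to 3.15) and Lgr5 9.86-fold higher in fibroblasts (6.85 to 14.7), with 20.3 CPM in TMC2. Rnf43 was 92.9-fold higher in epithelium (75.9 to 114.9).

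Among nuclear factors and targets, 4 of 9 were higher in fibroblasts (10.5% of all genes) and 1 in epithelium (17.7%). This list also holds Lgr5, so Lgr5, given above with the R-spondin receptors, is counted again among those higher in fibroblasts. Tcf7 stood at 1261 CPM and Lef1 at 1054 CPM in the Thymocyte label, 23.5-fold and 3.16-fold above the next label, and Tcf7l2 at 426 CPM in TMC2. The feedback targets Axin2, Nkd1 and Nkd2, named after their values were seen, were 3.44-fold, 8.44-fold and 7.68-fold higher in fibroblasts than in epithelium. Lef1 was 3.53-fold higher in epithelium, as were, among feedback ligases, Rnf43 (92.9-fold) and Znrf3 (2.18-fold), so the targets did not all lie on the same side. Axin2 was highest in TMC2 (85.7 CPM), and Nkd1 and Nkd2 in TMC4 (93.0 and 102.8 CPM).

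In the thymocyte library, Tcf7 stood at 1320 CPM and Lef1 at 1133 CPM, with a UMI in 96.5% and 93.5% of cells. Axin2 stood at 49.6 CPM in all, 294.5 CPM in Immature CD4-1 (226 UMIs), 268.4 CPM in Immature CD8-1 (264 UMIs) and 19.5 CPM in DN. Notum reached 60.8 CPM in Pre DP-sig (73 UMIs). Of the receptors, Ryk stood at 67.2 CPM and Lrp6 at 39.6 CPM. Wnt5b stood at 4.14 CPM over the library, with the 28.3 CPM in gdT given above. Of the other members, Wnt4 stood at 4.76 CPM (307 UMIs), Sfrp1 at 0.714 CPM (46 UMIs) and Rspo1 at 0.341 CPM (22 UMIs), and Wnt5a, Wnt2b, Wnt10b, Rspo3 and Dkk2 had 10 UMIs or fewer each. The libraries were prepared apart, so levels are not set against each other by a ratio.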

How the data were processed

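Droplet counts are UMIs per gene and cell, deposited by the authors as whole-number count matrices; Cell Ranger 8.0.0, Seurat 5.3.0 and the build mRatBN7.2 are named in the submitters' processing notes, and the annotation used for counting is not given in the sources used here. The deposited metadata give each cell's percent of mitochondrial counts, computed by the authors, and its cluster and projected label; the projected label was used, or the initial cluster where there was none. The section's deposited metadata give counts, region and labels per bin.

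UMIs were summed per label (Python 3.11.15, NumPy 2.4.6, SciPy 1.17.1). Levels have exact Poisson intervals, shares exact Clopper-Pearson intervals, and ratios exact intervals conditional on the sum of both counts, all at 95% and covering counting error only. For calls, and for ratios of summed counts under alternatives, counts under 3 UMIs were set to 3. Printed main ratios over a label of 1 or 2 UMIs use the counts as they are. Labels had at least 20 cells, calls needed 3-fold and at least 20 UMIs, and likeness was taken over labels of at least 50 cells and genes of at least 100 UMIs, naming 3 genes per member. All 9 members were named, and of the pathway list the 3 genes per role with the largest ratio of highest to next label. The lead rule and the interval of the ratio were run on simulated counts. Those were independent Poisson counts per label, so the run does not cover the uneven spread of UMIs over cells. With 1 library per group no test was made. Members and lists were chosen with earlier results of these data known. The 2934 barcodes without annotation were left out of the levels.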

Additional observations from a re-analysis of the deposited data

Results flagged for a closer look

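Signal of all 9 genes was present in the 2934 stromal barcodes left without a label, which no level above includes. There, Sfrp1 stood at 180.2 CPM, Dkk2 at 115.1 CPM, Wnt4 at 35.4 CPM, Wnt5a at 12.8 CPM, Rspo1 at 12.4 CPM, Wnt5b at 12.005 CPM, Rspo3 at 5.66 CPM, Wnt10b at 3.81 CPM and Wnt2b at 0.808 CPM. Wnt10b (33 UMIs) and Wnt5b (104 UMIs) were higher there than over the annotated cells (1.77 and 8.47 CPM), and the other 7 were lower. Each value lies above the limit that a count of 0 allows. Which cells these barcodes hold was not tested.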

How the results depend on the processing

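Of 373 values under alternatives, 273 stayed within the main 95% interval (counts within 1.5 times), 99 moved beyond it and 1 reversed. No ratio of fibroblasts to epithelium changed direction beyond its interval. The label MEC rests on 48 cells of 1 library. In the main setting, 2 of 9 members and 5 of 41 other pathway genes led the next label by 3-fold, against 9.44% of 13149 genes. The share over all genes was not computed under the alternatives. Counts of called genes below are therefore not read as results about these genes.

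With cells averaged equally, the ratio of fibroblasts to epithelium was 9.77 for Wnt5a, 10.0 for Rspo1, 12.8 for Dkk2 and 3.48 for Sfrp1; the ratio to the next label was 3.47 for Wnt5b, 1.49 for Dkk2 and 1.44 for Sfrp1; and levels were 55.5 CPM for Wnt5b, 49.3 for Rspo3, 585.1 for Dkk2 and 1711.8 for Sfrp1.

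At 3000 UMIs per cell, class ratios were 59.7 for Wnt4 (epithelium over fibroblasts), and 9.06 for Wnt5a, 11.4 for Rspo1, 12.4 for Dkk2 and 3.42 for Sfrp1 (fibroblasts over epithelium); the ratio to the next label was 1.15 for Rspo3, 1.49 for Dkk2 and 1.43 for Sfrp1. Levels were 262.5 CPM for Wnt4, 47.7 for Wnt5b, 48.8 for Rspo3, 590.8 for Dkk2 and 1707.2 for Sfrp1. Shares of cells in the highest label were 50.0% for Wnt4, 23.6% for Wnt5a, 13.2% for Wnt5b, 21.3% for Wnt2b, 8.22% for Wnt10b, 11.3% for Rspo3, 63.2% for Dkk2 and 89.9% for Sfrp1. The count of members called fell to 1 and of pathway genes to 2, with fewer UMIs to pass the minimum.

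At 1000 UMIs per cell, the ratio of TMC2 to the next label reversed for Rspo3 (0.869, against 3 UMIs of the goblet label). The ratio of the highest label to the next was 0.9201 for Wnt5a (TMC1, with capFb above it), 9.70 for Rspo1 (MEC) and 1.47 for Dkk2 (TMC4). Wnt10b gave no ratio, with 1 UMI in each of mTEC-prol and mTEC2. Class ratios were 2.59 for Wnt5b (epithelium over fibroblasts), and 1.39 for Wnt2b, 11.4 for Rspo3, 12.3 for Dkk2 and 3.49 for Sfrp1. A class with fewer than 3 UMIs was set to 3, so the value of Wnt2b is not read as a change in level. Levels were 272.9 CPM for Wnt4, 59.6 for Wnt5b, 13.2 for Wnt10b, 812.5 for Rspo1, 609.3 for Dkk2 and 1717.1 for Sfrp1. Shares were 23.7% for Wnt4, 8.21% for Wnt5a, 5.77% for Wnt5b, 6.25% for Wnt2b, 1.32% for Wnt10b, 50.0% for Rspo1, 4.25% for Rspo3, 37.5% for Dkk2 and 68.9% for Sfrp1. Members called were 1 and pathway genes 2. The cause of the reversal was not tested beyond these counts.

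With mitochondrial, ribosomal and haemoglobin genes out of the totals, levels were 301.9 CPM for Wnt4, 105.3 for Wnt5a, 46.6 for Wnt5b, 808.2 for Rspo1, 51.6 for Rspo3, 620.3 for Dkk2 and 2042.7 for Sfrp1, since the totals are smaller, and the class ratio of Sfrp1 was 3.06.

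With initial clusters in place of labels, the class ratio was 1.30 for Wnt2b and 2.69 for Rspo1, both under 3-fold, since MEC cells then count as epithelium; members called were 1 and pathway genes 9. This setting gave no value for the highest label of Wnt4, Wnt2b, Wnt10b and Rspo1, which is no initial cluster.

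With non-fibroblast cells that carry fibroblast markers left out, class ratios were 17.8 for Wnt5a, 25.3 for Rspo1, 28.3 for Rspo3, 41.7 for Dkk2 and 4.31 for Sfrp1, and Wnt4 stood at 273.2 CPM. This setting takes cells out by their fibroblast markers and only outside the fibroblast labels, so these ratios are a description. It left out 46 of 48 MEC cells, so members called fell to 0 and MEC gave no value, as with labels of at least 50 cells (0). Leaving out TEC-c and Endo-2, chosen after seeing the data, gave 14.4 for Wnt5a, 17.5 for Rspo1, 16.5 for Rspo3, 26.2 for Dkk2 and 3.94 for Sfrp1, with 274.4 CPM of Wnt4, 809.9 CPM of Rspo1 in MEC and 9.24-fold over the next label.

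With a minimum of 50 UMIs, members called were 1 and pathway genes 2. In the section, capsular shares with any label of a bin were 80.6% for TMC1, 71.3% for TMC2, 38.8% for TMC3 and 81.6% for capFb; in segmented cell bins 50.8% for TMC3, 7.01% for TMC4 and 100% for capFb; in deeper bins 51.5% for TMC3, 8.77% for TMC4 and 100% for capFb.

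No paired analysis was possible because only 1 sample of each kind was made and nothing was tested between groups.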
